A study of Anser sp. with 4 samples.

Results

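The transcripts described here were brightest in goose skin before molt and lower at every later sampling. They were chosen from the signals themselves, as transcript identifiers whose level before molt was at least 1.5 on the log2 scale (2.83-fold) above the highest of their 3 levels after molt. Levels are log2 signals after subtraction of the array's 75th percentile, and a level under -3.7 was set to that floor. Of 20408 identifiers with a probe well above background on at least 1 array, out of 31550 on the design, 331 met the rule (1.62%). The difference from before molt is therefore what chose them, and it is given as a description, with no test. In 313 of the 331 the level came from 1 probe in use, so most members have no second reading of the difference. Probes never well above background were left out. With such dim probes kept, 291 of the members met the rule, 277 of them read by 1 probe.

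The study followed feather regeneration in the Wanxi-White goose. Ventral skin of female birds was taken before molt, with no treatment named, and at 1.5, 5 and 10 days after molt, and each time was read on 1 one-colour array. The labels name 6 birds penned apart for the sampling, moved to pens at 10 weeks of age. They do not give the age at molt, say whether RNA was pooled, or tie a sample to a bird. With 1 array per time, no difference between times has a replicate error or a p-value.

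A feather follicle passes through growth, rest and shedding. At molt the old feather is lost and a new one is built at the base of the follicle, where the epidermal collar lies by the dermal papilla. Cells from the collar divide, differentiate and fill with corneous beta-proteins. Pieces of whole skin also hold the epidermis between follicles, dermis, fat, vessels, nerves, the small feather muscles and immune cells. An array of such skin cannot tell fewer cells of a type from less RNA per cell. In the files 0 identifiers carry a symbol, so the members are described as transcripts without gene names. For the same reason the skin label could not be set against marker genes, nor could genes that mark fat, muscle or blood be looked up.

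The array design was made for chicken, and the probes read goose RNA. Between 52.4% and 57.5% of the non-control spots were well above background on each array, and 0 were saturated. The 4 arrays lay on 1 slide and shared 1 scan time in the file headers. The spread between different probes of 1 identifier was larger for ratios with the array from before molt, with SDs of 0.65, 0.64 and 0.51 log2 at 1.5, 5 and 10 days, than for the ratio of 5 over 1.5 days (0.35). It was 0.54 for 10 over 1.5 days and 0.48 for 10 over 5 days. The part of this spread in the choice of the 331 members was not tested.

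On the scale used here the members' median level was lowest at 5 days. This order of the later arrays depended on the processing, as the members' median log2 ratio of 5 over 1.5 days was 0.50 with normexp background correction and 0.00 with spike-in scaling, and that of 10 over 5 days was -0.23 with normexp. Over all identifiers the same medians were 0.28, 0.19 and -0.25, so part of these shifts was shared by the whole array. Before molt the members ranged from -2.18 to 9.27, with a median level of 0.18. The median was -2.52 on the first array after molt, -3.16 at 5 days and -1.87 at 10 days. Over all 20408 identifiers the medians were close to each other, at -1.02, -1.13, -1.12 and -1.06 in the same order. Taken member by member against its own level before molt, the median fold lower was 5.27 at 1.5 days, 6.69 at 5 days and 3.91 at 10 days. Part of the group was at the floor, 91 members at 1.5 days, 139 at 5 days and 68 at 10 days, so these folds understate the difference of dim members. At 16-fold (4 on the log2 scale), 37 members stood that far below their own starting level at 1.5 days, 66 did at 5 days and 5 at 10 days. These counts rest on the difference from before molt that chose the members.

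The gap to the highest later level had a median of 1.86 log2 over the members, with quartiles of 1.66 and 2.21 and a highest value of 5.29. Over all identifiers the same quantity had a median of -0.25, as it compares 1 level with the highest of 3. The spread of this gap between probes of 1 identifier was 0.57 log2 (SD over 4603 identifiers with 2 or more probes). Of the 331 members, 127 were at least 4-fold above every later level, 0.622% of all identifiers. At 8-fold (3 on the log2 scale) 18 remained of the 331. The gap was 1.5024, 1.5056 and 1.5105 in the 3 members nearest the threshold, and 1.4994, 1.4980 and 1.4968 in the 3 identifiers just outside it. Within 0.1 of the threshold lay 53 members and 58 identifiers left out.

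**Figure D1:**
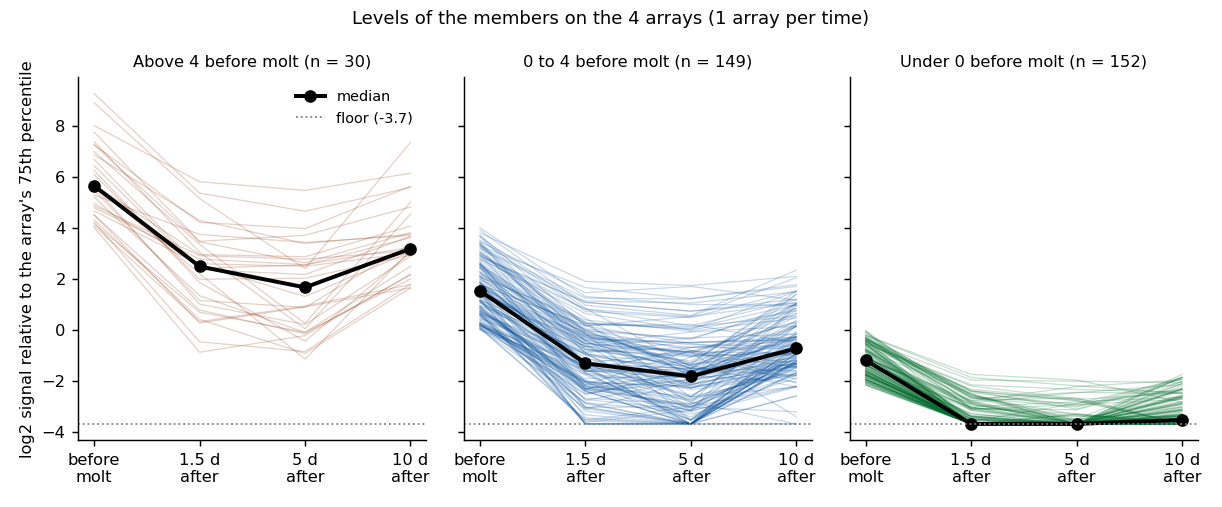
Levels of the 331 members on the 4 arrays, 1 thin line per transcript identifier, split by level before molt. The vertical axis is the level on the log2 scale, the black line is the median of each class and the dotted line the floor at -3.7. The 30 brightest members have medians of 5.64, 2.48, 1.66 and 3.18 in time order, and the 152 dimmest have medians at the floor at 1.5 and 5 days and of -3.54 at 10 days, with single members up to -1.76.

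Transcripts that stood apart before molt outnumbered those that stood apart in any other sample. At the same size of 1.5 log2, 71 identifiers (0.348%) were lower before molt than at every later time, against the 331 that were higher. Above every other sample were 17 identifiers at 1.5 days, 38 at 5 days and 56 at 10 days, and below every other sample 18, 154 and 102. The floor treats high and low dim transcripts unequally. Among the 15667 identifiers above the floor on all 4 arrays, 178 were higher before molt than at every later time and 58 were lower. Of the identifiers apart before molt 82.3% were higher ones, against 93.7% after another background correction (normexp, 89 higher and 6 lower) and 97.8% after scaling on spike-in RNA (707 higher and 16 lower). The share was lower under other settings, at 73.9% with median centring (280 higher and 99 lower), 73.3% with detection required on all 4 arrays (181 and 66) and 76.9% with no floor (494 and 148). It was 78.6% with quantile normalization and with the authors' deposited log2 table (316 and 86 in each). On the scale used here the spike-in signals at 1.5 days stood 0.92 ± 0.09 log2 (SD over 6 control probes) above those before molt. The same difference was 0.57 ± 0.06 at 5 days and 0.41 ± 0.07 at 10 days. The median gap of all identifiers was -0.25, and it was -0.41 with normexp correction, -0.36 with median centring and 0.23 with spike-in scaling. High before molt is therefore meant relative to the other transcripts on each array.

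Members were sorted by their level before molt to set bright and dim transcripts side by side. An identifier less than 1.5 above the floor before molt could not be a member. There were 30 members above 4, which is 2.30% of the 1304 identifiers that bright. Between 0 and 4 there were 149 (2.42% of 6150), and under 0 there were 152 (1.17% of 12954). All 331 were well above background before molt. At all 3 later times 176 were still well above background, at 2 times 63, at 1 time 63, and 29 at none. At 5 days 186 members were well above background (56.2%), against 83.7% of all identifiers. At 1.5 days the share was 79.2% of members and 90.7% of all, and at 10 days 81.3% and 88.3%.

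**Figure D2:**
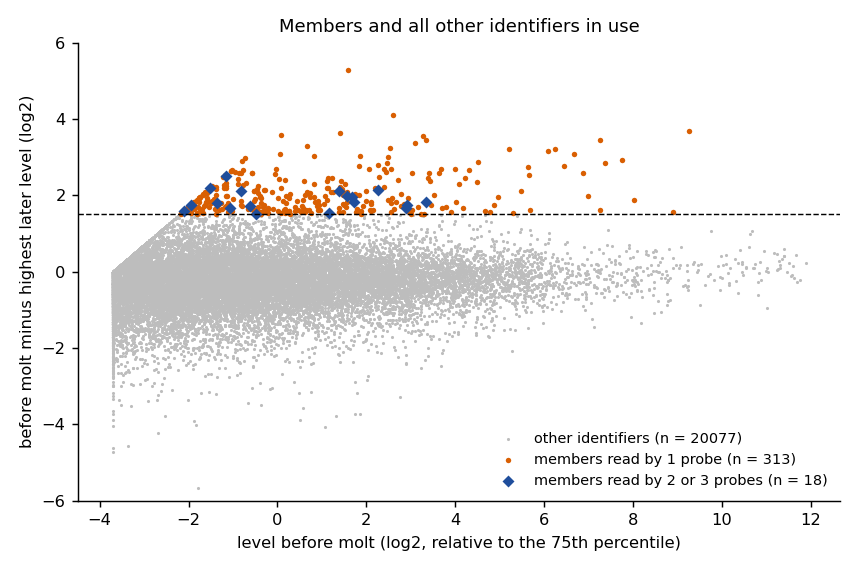
Level before molt against the gap between before molt and the highest later level, both on the log2 scale, for each identifier in use. Grey points are identifiers that are not members, orange points the 313 members read by 1 probe and blue diamonds the 18 read by 2 or 3. The dashed line is the threshold of 1.5, and 6 identifiers below -6 are not drawn. Members occur at dim and bright levels, with 30 of them above 4.

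The 30 brightest members kept a measurable signal throughout, and their median was lowest at 5 days and higher at 10 days, though still below that before molt. Before molt their levels ran from 4.01 to 9.27 with a median of 5.64. At 1.5 days they ran from -0.89 to 5.81 with a median of 2.48, and at 5 days from -1.16 to 5.47 with a median of 1.66. At 10 days they ran from 1.64 to 7.35 with a median of 3.18. The median fold by which a bright member stood below its own level before molt was 13.8 at 1.5 days, 19.1 at 5 days and 5.27 at 10 days. In 28 of the 30 the highest later level was at 10 days, in the other 2 at 1.5 days. Over all identifiers, of any level before molt, the shares were 34.0% at 10 days and 33.9% at 1.5 days. At 10 days 18 of the 30 were still at least 4-fold below their level before molt. Each of the 30 was read by 1 probe in use, and 28 of them met the rule with dim probes kept.

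Before molt the group's share of the signal was near its 1.62% share of the identifiers. Its members held 1.57% of the signal summed over identifiers before molt, and 0.210%, 0.149% and 0.360% on the later arrays in time order, and the 30 brightest held 1.29% of it before molt. Of the 100 brightest identifiers before molt, 2 were members, where 2.30% of all identifiers above 4 and 1.62% of all identifiers were. The brightest member ranked 73 of 20408 before molt, at a level of 9.27. It was at 5.36 at 1.5 days, 4.65 at 5 days and 5.58 at 10 days, so it was 12.8-fold above its highest later level and its 3 later levels spanned 0.93 log2. It alone held 16.1% of the members' summed signal before molt.

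The 149 members between 0 and 4 stood lowest at 5 days too. Their median level was 1.53 before molt and then -1.32, -1.83 and -0.73 in time order. The median fold below before molt was 6.53, 9.79 and 3.99 at the 3 later times. The highest later level was at 10 days in 109 of them, at 1.5 days in 32 and at 5 days in 7. The 152 members under 0 had a median of -1.20 before molt and lay at the floor at 1.5 and 5 days, and at -3.54 at 10 days. Of the 152, 25 were well above background at all 3 later times, and for the others at least 1 later level was not and is uncertain. The highest later level was at 10 days in 72, at 1.5 days in 32 and at 5 days in 6, and the rest had all later levels at the floor.

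By the rule for naming transcripts without gene symbols, which takes the largest gaps among members whose detected probes all met the threshold, 2 identifiers are named. ENSGALT00000026012, a chicken Ensembl transcript read by 1 spot, had a processed signal of 374 before molt, and 1.94, 2.49 and 2.36 at 1.5, 5 and 10 days. It was well above background before molt and not well above background on any later array. Against the lowest signal well above background on each later array, it was 52.8-fold higher before molt than at 1.5 days. The same comparison gave 37.7-fold at 5 days and 48.4-fold at 10 days. These folds are not strict limits, as an identifier not well above background could lie above that lowest signal at 5 days. CR338681, also read by 1 spot, had processed signals of 754 before molt and then 28.8, 12.7 and 38.1 in time order, and was well above background on all 4 arrays. It was 28.2-fold higher before molt than at 1.5 days, 49.8-fold higher than at 5 days and 17.4-fold higher than at 10 days. On the log2 scale its gap of 4.12 was 2.83 with normexp correction, and the gap of ENSGALT00000026012, 5.29 at the floor, was 1.78.

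The later arrays were then compared with each other. The rule used the highest of the 3 later levels, so these ratios are not independent of the choice of members, and they are set beside all identifiers as a description only. At 10 days 124 of the 331 members were at least 2-fold above their level at 5 days, and 4 were that far below it. Among all identifiers 8.55% were higher and 5.66% lower over the same step. The members' median log2 ratio of 10 over 5 days was 0.55, against 0.00 over all identifiers. For the 177 members well above background on both arrays it was 0.91, against -0.08 over 16261 such identifiers, and 83 were at least 2-fold higher and 3 lower. The bright members had the highest median of the 3 level classes, 1.58, with 20 of 30 at least 2-fold higher, where all 1304 identifiers above 4 before molt had a median of -0.10 and 8.97% past 2-fold higher. In the members under 0 the median was 0.08. With normexp correction the members' median turned to -0.23 against -0.25 over all identifiers, while the 30 bright members kept a median of 1.67. Under it 37 of the 331 members were at least 2-fold higher, where 2.74% of all identifiers were.

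Between 1.5 and 5 days the ratios were smaller. At least 2-fold lower at 5 days were 51 members, and 3 were at least 2-fold higher, where 2.87% of all identifiers were lower and 2.76% higher. The median log2 ratio of 5 over 1.5 days was -0.21 over the members and 0.00 over all identifiers. Set against all identifiers, the members' median stayed lower under every scaling used here. This direction turned only with normexp background correction. After spike-in scaling the members' median was 0.00 against 0.19 over all identifiers, and after normexp correction 0.50 against 0.28, with 26 and 12 members at least 2-fold lower. For the 30 bright members it was -0.36, -0.01 after spike-in scaling and -0.71 after normexp correction.

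Over the whole span from 1.5 to 10 days, 82 members were at least 2-fold higher and 14 lower, beside 8.60% and 6.58% of all identifiers. At least 2-fold above both earlier arrays at 10 days were 74 members (22.4%), against 5.57% of all identifiers. Below both of them by 2-fold were 3 members, where 3.51% of all identifiers were. The rule allows a level at 10 days only up to 1.5 log2 under that before molt, so a full return would have kept a transcript out of the group.

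**Figure D3:**
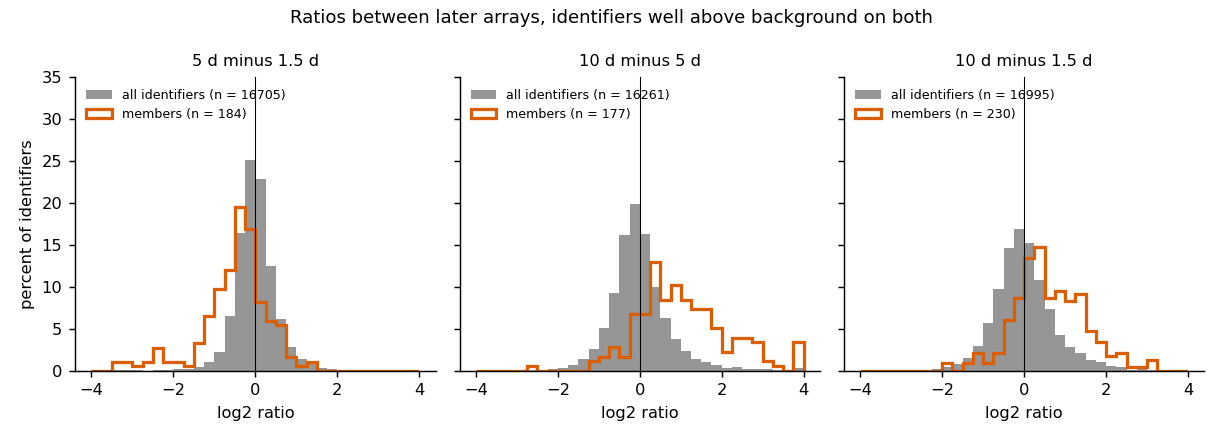
Distribution of log2 ratios between the later arrays, for identifiers well above background on both arrays of a pair, as percent of identifiers. Grey fill is all identifiers, the orange outline the members, and ratios beyond 4 in either direction are in the end bins. The members lie to the right of all identifiers for 10 over 5 days, with medians of 0.91 and -0.08, and to the left for 5 over 1.5 days, with medians of -0.37 and -0.02.

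The order of the later levels was read transcript by transcript. The highest later level was at 10 days in 209 members, at 1.5 days in 66 and at 5 days in 13, and 43 had all 3 at the floor. Among all identifiers these shares were 34.0% at 10 days, 33.9% at 1.5 days and 26.5% at 5 days, against 63.1%, 19.9% and 3.93% of members. Of the 176 members well above background at all later times, 118 were lowest at 5 days, 34 at 1.5 days and 21 at 10 days, and 3 had their lowest levels tied at the floor. The corresponding shares of 16065 such identifiers were 25.9%, 28.4% and 45.2%. The order of 10 days above 1.5 days above 5 days was found in 98 of the 176 members (55.7%) and in 16.5% of all such identifiers.

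Other members were level after molt. In 73 of the 176 members (41.5%) the 3 later levels lay within 2-fold of each other, beside 78.9% of all such identifiers. At the other end, 17 members spanned at least 8-fold among the later arrays. In 16 of these 17 the highest later level was at 10 days, and 13 were lowest at 5 days. No share over all identifiers is given for the 8-fold span, so these counts describe the members only. Within a member the highest and lowest later level lay 0.87 log2 apart in the median, against 0.55 over all identifiers. They lay at most 4.95 log2 apart in a member. Low throughout regrowth therefore describes a member against its level before molt and not a steady later level.

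Members with a second probe have a reading that does not rest on 1 probe sequence. Only probes in use, well above background on at least 1 array, are counted here. Of identifiers read by 1 probe, 1.98% were members, against 0.549% of those read by 2 and 0.0665% of those read by 3 or more. Identifiers with more probes were also brighter, with median levels before molt of -1.32, -0.48 and 0.24, and the part of this in the shares was not tested. Probe by probe the share past the threshold was 1.98% for identifiers with 1 probe, 1.19% with 2 and 0.570% with 3 or more. The 18 members read by 2 or 3 probes fell into 3 kinds. In 3 every probe passed the threshold, in 12 only 1 probe did, and in 3 no probe did although their mean met the rule. Probe levels were averaged before the floor was set. The members with probe gaps of 0.85 and 1.30, and of 0 and 1.43, had means at the floor at all later times. Probe levels under the floor therefore entered these means. In 14 of the 18 every probe was higher before molt than at all later times. The mean of these same probes chose the 18, so this agreement is in part fixed by the rule.

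The 3 members with both probes past the threshold differed in their later course. The first stood at 1.57 before molt and at -0.88, -0.49 and -0.42 at 1.5, 5 and 10 days, within 2-fold of each other. The second stood at 3.33 before molt, -0.78 and -1.36 at 1.5 and 5 days, and 1.51 at 10 days. The third stood at 1.67 before molt and then at -0.27, -2.29 and -1.44 in time order. Their probes gave gaps of 1.99 and 1.99, 1.67 and 1.97, and 1.92 and 1.97.

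A probe past the threshold was seldom matched by the other probes of its identifier. Among identifiers with 2 or more probes in use, 104 of 11459 probes passed (0.908%), in 101 identifiers, with a median gap of 1.88. The mean levels of the other probes of the same identifiers gave a median gap of -0.11, with quartiles of -0.66 and 0.53, where the median of all 11459 probes was -0.36. At least 1 log2 was reached by the other probes in 10 of 104 cases (9.62%), in 7 identifiers, against 2.29% of all probes. The threshold of 1.5 was reached in 6 cases, in 3 identifiers. Other probes that lay less than 1 above the floor before molt could not reach 1, and those less than 1.5 above it could not reach 1.5. Such cases occur at each level of the passing probe and stay in these counts, so the counts understate how often a match was possible to see. The passing probes were split by their level before molt. For the 11 passing probes above 4 before molt the other probes had a median gap of -0.08 and 0 of 11 reached 1. Among these 11, other probes at -3.32, -2.79 and -3.7 before molt were too near the floor to reach it. For the 52 between 0 and 4 the median was 0.04 and 8 reached 1. For the 41 under 0 it was -0.25 and 2 reached 1. With dim probes kept, 140 probes passed, and the other probes reached 1 in 10 cases (7.14%). The cause of the difference between probes was not tested.

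**Figure D4:**
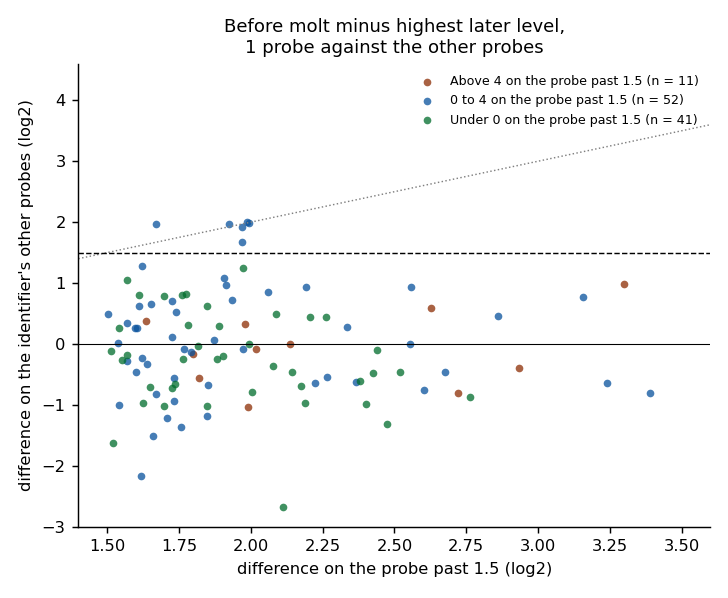
Gap between before molt and the highest later level, in log2, on each probe past 1.5 (horizontal axis) and on the mean of its identifier's other probes (vertical axis), for 104 probes of 101 identifiers with 2 or more probes. Colours give the level of the passing probe before molt, the dotted line is equality and the dashed line 1.5. Of the 104 points 45 lie above 0, and 6 points, from 3 identifiers, lie above the dashed line.

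The members were set beside all identifiers for properties that the rule did not use. By the kind of identifier, 148 of the 331 were chicken Ensembl transcripts, 29 were curated RefSeq mRNAs (NM) and 27 were predicted RefSeq mRNAs (XM), and 69 had accessions starting with CR. Curated RefSeq mRNAs were members less often (0.772% of 3758) than predicted ones (2.21% of 1224) or Ensembl transcripts (1.70% of 8696). Among identifiers read by 1 probe the shares were 1.33%, 2.30% and 2.17%. These shares were not tested against each other.

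Ensembl transcripts with close numbers were members together more often than Ensembl transcripts at large. Within 2 numbers of a member lay 142 other Ensembl identifiers in use, and 11 of them were members (7.75%), against 1.70% of all 8696. Within 5 numbers the share was 16 of 340 (4.71%), and within 10 it was 21 of 653 (3.22%). The distances were chosen after the values were seen. The files do not say whether such transcripts belong to 1 gene or to near-identical copies whose probes read both, so these are not separate observations. This limit holds for the bright members too, as the brightest, at 9.27 before molt, had close-numbered members at 7.26 and 6.68.

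Position on the slide and spot quality set the members apart little. Member spots made up 1.28% of the 27408 spots in use, between 0.896% and 1.53% over 8 bands of rows and between 1.19% and 1.45% over 5 bands of columns. None of the 350 member spots (0) carried an outlier flag on any array. Such flags were rare, on 52 probes, where the design holds 43603 non-control probes, so the 0 says little about the members. The median local background of member spots equalled that of all spots in use on each array, 43 before molt, and 44, 44 and 41 at 1.5, 5 and 10 days.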

How the data were processed

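Total RNA of ventral goose skin was labelled with Cy3 and hybridised to 1 array per time. Spot intensities in the authors' scanner files come from Agilent Feature Extraction 10.7, per the submitters' processing notes. Per the file headers (release 10.7.3.1) background was subtracted and the array detrended, with no scaling between arrays. The authors' deposited series table holds log2 values. Its 43603 probes all matched, with equal medians of 3.74 in every column. The sources used here do not give its method. Each of its columns correlated best with its own array (lowest r 0.9995).

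Processed signals of 43803 non-control spots per array were put on the log2 scale and the array's 75th percentile was subtracted. Spots of a probe were averaged, then, within an identifier, those probes with at least 1 array well above background, and values under -3.7 were set to -3.7. Groups are the times in the labels. With 1 array per time no test was made and no p-value is given; the number of arrays limits the precision. The members, gene lists, level classes and comparisons were chosen with earlier results of these data known. The gene lists could not be matched, as the files give no symbols, so marker lists were not run, and at most 2 identifiers are named, those with the largest gap among members whose detected probes each passed. No probe sequences were used here. Normexp (limma 3.58.1, R 4.3.3, offset 50) was run on median spot and background signals, as mean signals were not used here. The code that applies the rule was run on simulated levels with known raises. That run checked the code only and says nothing about the members. Python 3.11.15, numpy 2.4.6 and pandas 2.3.3 were used. The 10 alternatives were another background correction, 3 scalings, 2 filters, no floor, outlier spots left out, the brightest probe and the deposited log2 table.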

Additional observations from a re-analysis of the deposited data

How the results depend on the processing

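No paired analysis was possible because each time has 1 array, and no replicate could be left out. A slide block was not run, as all arrays share 1 slide. Of 7 counts tracked, all stayed within 1.5 times their value under median centring, quantile normalization, no filter, outlier spots left out and the authors' deposited log2 table, as did the 6 that the brightest probe allows. The counts of 2-fold steps between later arrays and of matched probes were chosen after seeing the data. Members of the group numbered 280 to 359 under these settings, and 494 with no floor. Not all of these settings are separate checks. Quantile normalization and the deposited table gave the same counts, 316 higher and 86 lower before molt. Leaving out outlier spots could not change the members' own levels, as 0 of 350 member spots carried a flag. Of the 30 brightest members, 27 met the rule with median centring, and 24 with quantile normalization and with the deposited table. With normexp correction 89 identifiers met the rule, of which 86 were among the 331 members and 29 among the 30 brightest. Another 6 were lower before molt. The same correction gave 39 members past 4-fold, 68 highest later at 10 days, and 3 probes matched at 1 log2 by their identifier's others. Of the 331 main members, it left 37 higher at 10 than at 5 days and 12 lower at 5 than at 1.5 days. Under it 265 of the 331 members were still higher before molt than at every later time. Its offset was 50, where the array medians of the processed signals were 11.3 to 15.2. The part of the offset in these counts was not tested. Spike-in scaling lowers all levels of each later array. It gave 707 members, 16 lower before molt, 281 past 4-fold, 460 highest later at 10 days, and 66 matched probes out of 242. With this scaling 26 of the 331 main members were lower at 5 than at 1.5 days. Detection on all 4 arrays left fewer identifiers, with 181 members, 69 past 4-fold and 132 highest later at 10 days. Of the 175 main members with a value there, 81 were higher at 10 than at 5 days. With no floor, 228 were past 4-fold, 148 were lower before molt and 18 probes were matched, and 95 of the 331 main members were lower at 5 than at 1.5 days. These groups differ in size. The share of each group counted as highest later at 10 days was 63.1% on the main scale. It was 76.4% with normexp, 65.1% with spike-in scaling and 72.9% with detection on all 4 arrays. With no floor the group was larger, the count stayed at the 209 of the main scale, and the share was 42.3%. A highest later level was counted only where it lay above the value of the floor. The members added by this setting had all later levels at or below that value, so they could not be counted. The unchanged count was fixed in advance, and 42.3% does not show how often 10 days was highest without a floor. Signal over background limits the dim members most, as 155 of 331 were not well above background at some later time.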
